A study of Mus musculus with 22 samples.

Results

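The comparison described here sets left ventricles of mice carrying a transgene for valosin-containing protein (VCP TG) beside those of wild-type (WT) mice, all after 2 weeks of transverse aortic constriction (TAC), an operation that narrows the aorta and loads the left ventricle with pressure. It rests on 7 of the 22 libraries of the study, 4 from WT and 3 from VCP TG hearts, taken by their labels. The members are the named protein-coding genes that reached 5 TPM (a transcript level corrected for length and summing to the same total in each library) in at least 3 of the 7 libraries. They number 7327 of the 30735 genes in the table, which lists 21487 named protein-coding genes. The member nearest the minimum from above was Fbxo38, with 5.00033 TPM in the last of the 3 libraries it needed, and the nearest gene below it was C87414 at 4.99906 TPM. Of the members, 5871 were at 5 TPM or more in all 7 libraries, 106 reached it in the 3 VCP TG libraries and in no WT library, and 25 in WT libraries alone. A gene of these last 2 kinds entered through the group in which it was high.

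All mice were of the FVB strain and 3 to 5 months old, and total RNA was taken from left ventricular tissue with the Qiagen miRNeasy kit and made into Illumina TruSeq Stranded mRNA libraries. The remaining 15 libraries of the study were 4 WT and 4 VCP TG hearts 2 weeks after a sham operation, and 4 WT and 3 VCP TG hearts after 5 weeks of TAC. The promoter and cell type that drive the transgene are not given in the sources used here, nor whether each library came from its own animal, and the spread behind the p-values is that of these libraries and may be technical.

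VCP is a hexameric ATPase of the AAA family that pulls ubiquitin-tagged proteins out of membranes, complexes and chromatin, with adaptors such as Ufd1 and Nploc4, and hands them on, often to the proteasome. It also takes part in degradation at the endoplasmic reticulum (ER), in autophagy and in the clearance of damaged mitochondria. The heart muscle depends on these routes because its cells are rarely replaced and carry a dense set of mitochondria and sarcomeres. Ucp3, Cpt1a and Igtp are described below, and the bases in front of their transcription starts follow, 5′ to 3′ on the coding strand, from RefSeq (GRCm38.p6). They are shown because Ucp3 passed the test and Cpt1a acts at the entry step of the same fatty acid route. Of the fatty acid genes looked at, only Ucp3 and Cpt1a held the half-site marked below. The windows of Slc27a1, Slc25a20 and Hadh did not and are not printed. Igtp had the smallest limma adjusted p within the list of interferon response genes. In Ucp3 (chr7:100472741-100472989, + strand) and Cpt1a (chr19:3323051-3323284, + strand) the capitals mark the nuclear receptor half-site AGGTCA, read on either strand. In Igtp (chr11:58199306-58199555, + strand) they mark the gamma-activated site TTCNNNGAA and then the interferon-stimulated response element (GAAA, any 2 bases, GAAA), which do not overlap.
Ucp3: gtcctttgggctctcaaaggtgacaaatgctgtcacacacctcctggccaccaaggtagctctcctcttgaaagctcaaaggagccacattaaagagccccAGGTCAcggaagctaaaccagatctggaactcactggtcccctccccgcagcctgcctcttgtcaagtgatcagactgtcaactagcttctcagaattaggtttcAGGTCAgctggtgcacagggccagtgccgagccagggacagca
Cpt1a: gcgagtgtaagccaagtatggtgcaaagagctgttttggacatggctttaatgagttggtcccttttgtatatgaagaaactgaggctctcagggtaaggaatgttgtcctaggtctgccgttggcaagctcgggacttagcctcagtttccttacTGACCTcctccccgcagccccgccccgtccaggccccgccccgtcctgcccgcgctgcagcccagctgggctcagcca
Igtp: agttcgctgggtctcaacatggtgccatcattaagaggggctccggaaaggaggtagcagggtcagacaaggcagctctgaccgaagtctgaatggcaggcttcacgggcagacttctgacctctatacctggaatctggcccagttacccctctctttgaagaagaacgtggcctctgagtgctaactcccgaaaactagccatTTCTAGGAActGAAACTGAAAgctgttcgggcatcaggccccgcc

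Bases that overlap an annotated exon are left out, so the stretch printed for Cpt1a ends 16 bases short of the start and that for Ucp3 1 base short. Counted from the start, with the base next to it as 1, the half-site stood at bases 149 to 144 and 44 to 39 before the Ucp3 start, and on the opposite strand at bases 94 to 89 before that of Cpt1a. The Igtp matches lay at bases 45 to 37 and 34 to 25. The 3 motifs were searched on both strands in every RefSeq window of 250 bases before a start. Of 32807 such windows, 4604 held AGGTCA, 2302 TTCNNNGAA (7.02%) and 974 the interferon element (2.97%), and of 7598 windows of members 838, 411 (5.41%) and 171 (2.25%) did. The Ucp3 window also held TTCNNNGAA and the Igtp window AGGTCA, which are left in lower case. The windows of Slc27a1, Slc25a20 and Hadh, genes of the same fatty acid route, held none of these letters. A match describes the letters and is no evidence that a factor binds.

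Before the results, 3 features of the 7 libraries bear on how they read. The label of WT replicate 1 was at odds with its Vcp level, given in the next paragraph, and its atrial marker genes summed to 10564 TPM, those of VCP TG replicate 2 to 4718 TPM, and those of the other 5 libraries to between 272 and 910 TPM. The markers of T and B lymphocytes summed to 419 TPM in the library labelled WT replicate 1 and to 53.2 to 93.0 TPM in the rest. Of the 419 TPM, 287 were Igkc, an immunoglobulin light chain, and 111 Cd74, which other antigen-presenting cells also express. Without these 2 genes the sum was 16.9 to 21.1 TPM in the libraries labelled WT and 21.12 to 37.2 TPM in VCP TG. Next, the 13 mitochondrially encoded coding genes took 55.5 to 60.9% of all TPM in WT and 40.2 to 51.6% in VCP TG libraries, which leaves nuclear coding genes 32.2 to 34.4% and 38.5 to 52.3%. Last, 1344 olfactory and vomeronasal receptor genes, the receptors of smell and pheromone sensing, averaged 0.107 to 0.1998 TPM in WT and 0.311 to 0.841 TPM in VCP TG, and genes at 1 TPM or more numbered 12868 to 13414 and 13891 to 16813. The parts these play in the differences below were not tested. For that reason each difference was also computed after quantile normalization and after rescaling to the nuclear coding genes, and a gene is said to hold on all 3 scales when the libraries of the groups do not overlap on the deposited scale or on either of these. All 14 cardiomyocyte markers were measured, and their sum was 28336 to 37382 TPM in WT and 31118 to 38547 TPM in VCP TG. This sum shows heart muscle and does not separate ventricle from atrium. The label of left ventricle is therefore not checked by it, and the atrial sums above were high in 2 of the 7 libraries. The first principal component (41.4% of the variance) separated the groups, and the second (23.4%) set the library labelled WT replicate 1 and VCP TG replicate 2 apart.

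Vcp itself (chr4:42979963-43000507, − strand, GRCm38) was measured at 119 TPM in the library labelled WT replicate 1 and at 48.2, 47.7 and 50.3 TPM in WT replicates 2, 3 and 4, against 135, 125 and 151 TPM in VCP TG. The VCP TG libraries lay above every library labelled WT, but the first of these was closer to them than to its own group. The mean difference in log2(TPM + 1) was 1.16 ± 0.31 (standard error, n = 4 and 3, limma adjusted p = 0.0815), and an exact two-sided permutation test over the 35 regroupings gave p = 0.0571, the smallest it allows. After rescaling to nuclear coding genes the difference was 0.76 and the groups overlapped (exact permutation p = 0.171). Without the library labelled WT replicate 1 the difference was 1.47 (limma adjusted p = 0.0033). Levels of the same size occur elsewhere in the study: 45.7 to 82.6 TPM in sham WT, 73.5 to 186 TPM in sham VCP TG, 47.7 to 123 TPM in WT and 39.1 to 118 TPM in VCP TG hearts after 5 weeks of TAC.

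**Figure D1:**
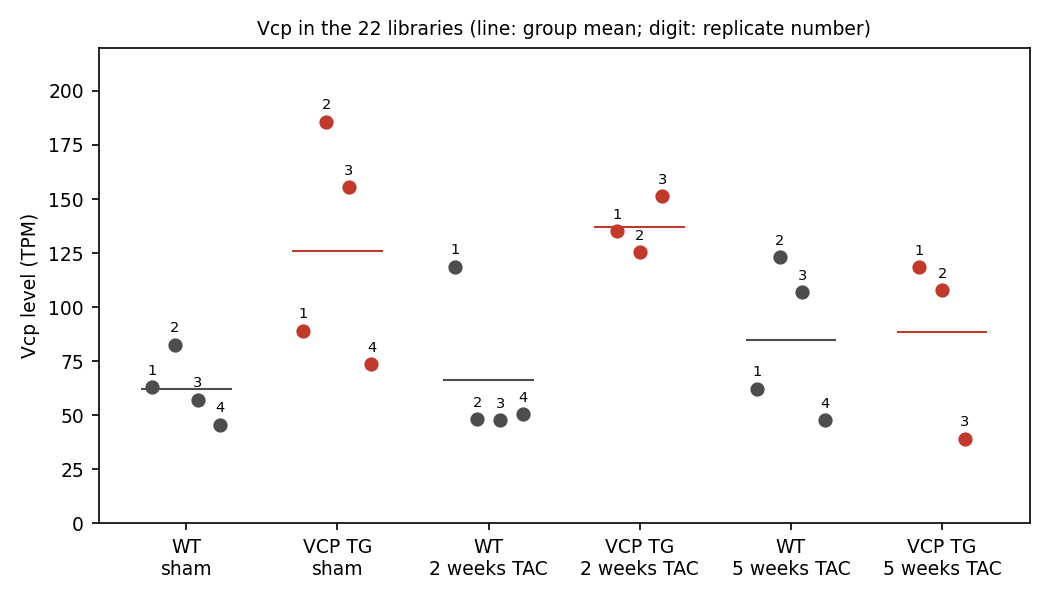
Vcp level (TPM, vertical axis) in each of the 22 libraries, with 1 point per library and the groups along the horizontal axis. At 2 weeks of TAC the VCP TG points lie at 125 to 151 TPM, 3 of the 4 WT points at 47.7 to 50.3 TPM and the library labelled WT replicate 1 at 119 TPM.

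Over the 14162 genes tested, limma called 8 higher in VCP TG (0.0565%) and 0 lower at an adjusted p under 0.05, and 3 of the 8 were members (0.0409% of members). At an unadjusted p under 0.05 there were 2972 higher (21.0%) and 370 lower (2.61%), of which 1362 and 294 were members (18.6% and 4.01% of members). The number of calls depended on single libraries: leaving out VCP TG replicate 2 gave 414 member calls (5.65%, beside 5.64% of all genes tested), leaving out the library labelled WT replicate 1 gave 37 (0.505%, beside 0.460%), and leaving out WT replicate 2 or 4 or VCP TG replicate 1 or 3 gave 0. Fitting only genes of 5 TPM or more in 3 libraries called 317 members, 289 higher and 28 lower (4.33%, beside 4.89% of the genes fitted). In the fit over all genes tested, 249 of 7327 members had a limma adjusted p of 0.06 or less, beside 425 of all 14162 genes. The 3 called members follow.

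Ccdc167, a coiled-coil protein of little known function (chr17:29687357-29717044, − strand), read 3.89, 3.88, 3.13 and 4.18 TPM in WT and 15.5, 10.6 and 11.9 TPM in VCP TG. Each VCP TG library exceeded the highest WT library, and the gene rose by 1.51 ± 0.15 in log2(TPM + 1) (standard error, limma adjusted p = 0.0201). Ucp3, uncoupling protein 3, a carrier of the inner mitochondrial membrane in muscle whose gene responds to fatty acids (chr7:100472990-100486432, + strand), read 3.32, 4.003, 3.59 and 3.18 TPM in WT and 9.24, 8.59 and 12.1 TPM in VCP TG. It rose by 1.27 ± 0.14 (limma adjusted p = 0.0301), and the groups were also apart on all 3 scales. F830016B08Rik falls outside the rule for named genes because of its provisional name and is named after its values were seen. Its levels were 15.7, 13.6, 21.7 and 12.8 TPM in WT and 72.6, 48.6 and 58.7 TPM in VCP TG, a rise of 1.86 ± 0.20 (limma adjusted p = 0.0301). Ccdc167 and Ucp3 were below 5 TPM in every WT library and are members through the VCP TG libraries, so of the 5871 members at the minimum in all 7 libraries 1 was called (0.0170%). All 3 lost the call without WT replicate 2 or 4, or VCP TG replicate 1 or 3, and Ucp3 also without WT replicate 3, with limma adjusted p of up to 0.186 and differences of 1.13 or more. Quantile normalization ended the calls of Ucp3 (limma adjusted p = 0.0760) and F830016B08Rik (0.0509), and rescaling to nuclear coding genes that of Ucp3 (0.0560).

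**Figure D2:**
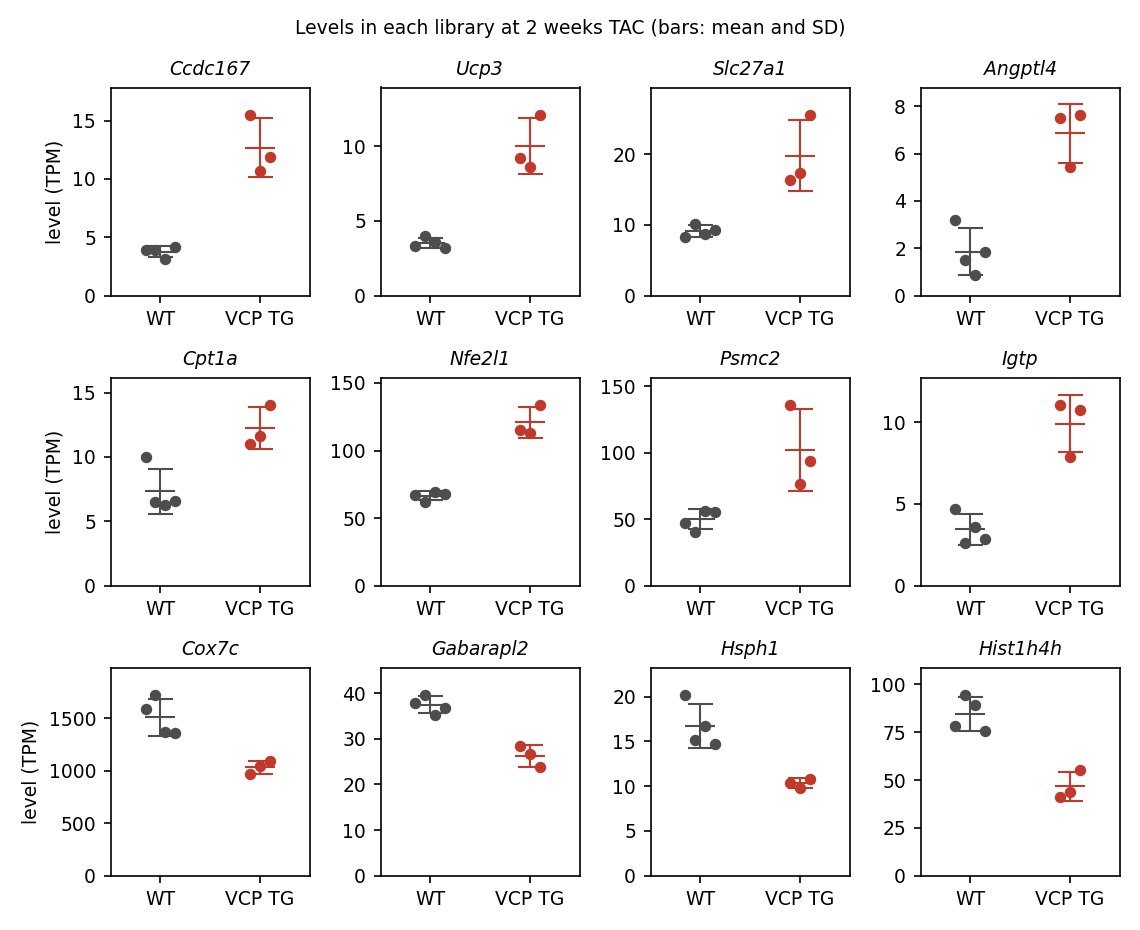
Levels (TPM, vertical axis of each panel, from 0) of 12 members in the 7 libraries, 1 point per library, with bars at the group mean and SD for WT (n = 4) and VCP TG (n = 3). Ucp3 lies at 3.18 to 4.00 TPM in WT and at 8.59 to 12.1 TPM in VCP TG, and the groups do not overlap in any panel, the 12 genes having been picked from those without overlap.

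The other calls were 5 pseudogenes that are not members, and they are named after their values were seen. Gm10108 was listed at 0 in all 4 WT libraries and at 37.2, 26.5 and 36.5 TPM in VCP TG, and Hbb-bh0, a globin pseudogene, at 0 in WT and at 3.87, 3.13 and 3.796 TPM in VCP TG. Gm11429, Gm2316 and Gm17916 were the remaining 3. Genes listed at 0 in every WT library and at 1 TPM or more in every VCP TG library numbered 11, of which 0 are protein-coding, and 0 genes showed the reverse. Gm10108 was not particular to this comparison: it was also listed at 0 in 1 sham WT, 2 sham VCP TG and 1 WT library of 5 weeks of TAC, and reached 223 TPM in another of that last group.

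Since few genes passed the adjusted threshold, the libraries are also described by whether the groups overlap. All 3 VCP TG libraries lay above all 4 WT libraries for 1254 members (17.1%) and below them for 344 (4.69%), beside 2753 (19.4%) and 421 (2.97%) of all genes tested. The 106 members that reached 5 TPM in VCP TG libraries alone are among the 1254 by the way members were chosen, and 15 of the 25 that reached it in WT libraries alone are among the 344. The 5871 members at the minimum in all 7 libraries are free of this, and of them 948 were higher (16.1%) and 316 lower (5.38%). Quantile normalization turned this split to 646 higher (8.82%) and 880 lower members (12.0%), beside 8.67% and 10.6% of all genes, and rescaling to nuclear coding genes to 259 (3.53%) and 2003 (27.3%), beside 5.78% and 19.0%. The median difference of all genes moved with it, from 0.15 as deposited to -0.05 and -0.17, and that of members was 0.10 as deposited. On all 3 scales 259 members were higher (3.53%) and 330 lower (4.50%), beside 5.22% and 2.87% of all genes. These too hold 42 members from VCP TG libraries alone and 15 from WT libraries alone, and of the 5871 members at the minimum in all 7 libraries 179 were higher (3.05%) and 303 lower (5.16%) on all 3 scales. Both other scales moved the differences down. Of the 344 lower members 330 held on all 3 scales, against 259 of the 1254 higher ones. For a lower gene, holding on all 3 scales thus adds little to its deposited values, here and below. Fewer libraries leave fewer chances to overlap, and without the library labelled WT replicate 1 and VCP TG replicate 2 the deposited scale gave 2781 members higher (38.0%) and 684 lower (9.34%), beside 42.6% and 6.28% of all genes. Leaving out VCP TG replicate 2 gave 2021 members higher (27.6%, beside 31.9% of all genes), and leaving out the library labelled WT replicate 1 gave 1983 (27.1%, beside 29.7%). The lower members were 612 without VCP TG replicate 3 (8.35%, beside 5.45% of all genes) and 549 without WT replicate 3 (7.49%, beside 4.94%). Provisional gene names (Gm with a number, or ending in Rik) made up 48 of the 259 higher members (18.5%) and 208 of all 7327. Among them Gm10722, named after its values were seen, read 451, 232, 453 and 679 TPM in WT and 3763, 1598 and 1778 TPM in VCP TG, a difference of 2.37 ± 0.40 (limma adjusted p = 0.0533).

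**Figure D3:**
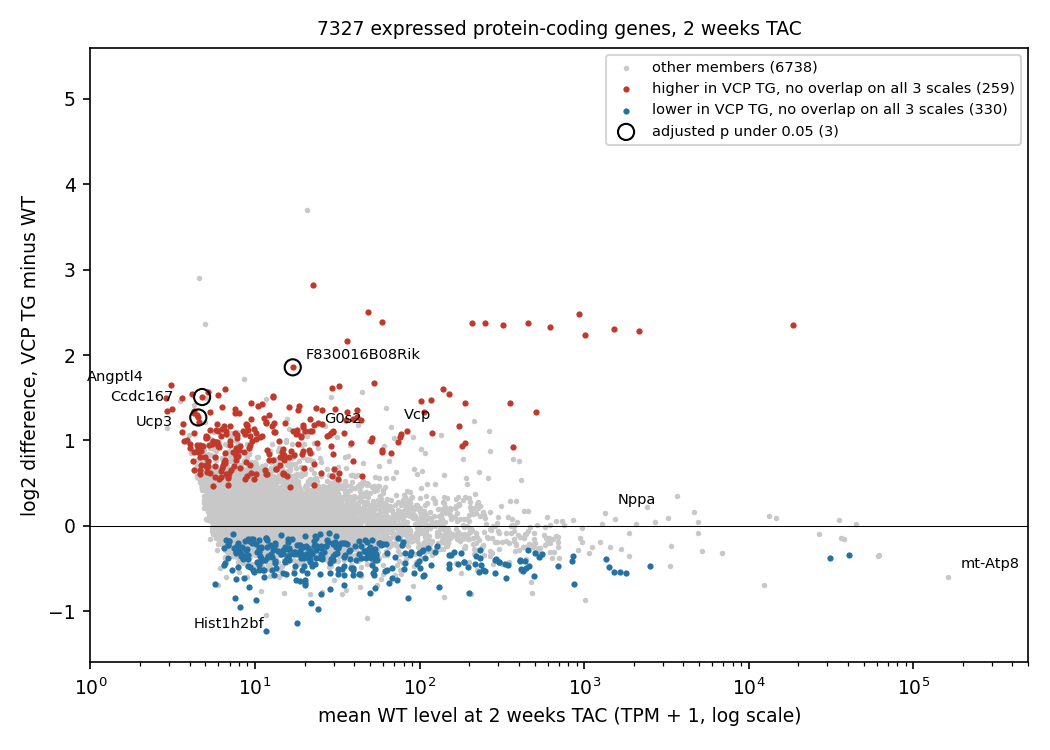
Each point is 1 of the 7327 members, with its mean WT level (TPM + 1, logarithmic axis) on the horizontal axis and the VCP TG minus WT difference in log2(TPM + 1) on the vertical axis. The median of the members is 0.10, and the 259 members that stay higher and the 330 that stay lower on all 3 scales are coloured, with the 3 called members circled.

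Beyond the 3 calls, the 13 members with the smallest unadjusted p on the higher side each had a limma adjusted p of 0.0533 and are given as values. Chil3, a chitinase-like protein secreted by macrophages, read 2.76, 1.41, 1.71 and 1.84 TPM in WT and 8.36, 5.07 and 5.96 TPM in VCP TG (difference 1.34 ± 0.20). It was below 5 TPM in every WT library and is a member through the VCP TG libraries alone, as is Igtp, given further on. Nfe2l1, a transcription factor anchored in the ER that is freed with the help of VCP and drives proteasome genes, read 67.2, 61.6, 68.9 and 68.1 TPM in WT and 115, 113 and 134 TPM in VCP TG (0.85 ± 0.11). Wfs1, an ER membrane protein, read 13.7, 12.8, 12.3 and 14.3 TPM in WT and 24.3, 21.4 and 26.1 TPM in VCP TG (0.80 ± 0.11). These 3 genes were higher in every VCP TG library on all 3 scales. G0s2, the inhibitor of the triglyceride lipase Pnpla2, read 19.04, 21.1, 25.1 and 19.3 TPM in WT and 44.7, 41.4 and 54.3 TPM in VCP TG (1.11 ± 0.14). Dot1l, a histone methyltransferase, read 7.91, 6.58, 7.21 and 6.85 TPM in WT and 13.1, 13.0 and 18.01 TPM in VCP TG (0.94 ± 0.14). Both held on all 3 scales, as did the differences of 0.88 for Nav2, 1.11 for the galectin Lgals4, 1.11 for the prolactin relative Prl8a1, 1.06 for the progestin receptor Paqr7, 1.18 for Wdr31 and 1.30 for Igtp. Anapc4, a subunit of the anaphase-promoting ubiquitin ligase (0.65), and Cyth1, an exchange factor for ARF proteins (0.66), overlapped between the groups after rescaling to nuclear coding genes.

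On the lower side the 15 members with the smallest unadjusted p had limma adjusted p of 0.0533 to 0.0549. All of them held on all 3 scales, as did 330 of the 344 members lower without overlap. Timm8b, a chaperone of the mitochondrial intermembrane space, read 176, 243, 199 and 171 TPM in WT and 111, 111 and 116 TPM in VCP TG (-0.79 ± 0.14). Timm21, a subunit of the inner membrane import channel, read 16.99, 21.5, 18.6 and 19.9 TPM in WT and 11.4, 12.05 and 12.5 TPM in VCP TG (-0.64 ± 0.11). Ufm1, a ubiquitin-like modifier used at the ER, read 14.3, 13.2, 14.6 and 13.5 TPM in WT and 10.2, 8.95 and 8.35 TPM in VCP TG (-0.55 ± 0.10). In each of these 3 the highest VCP TG library was below the lowest WT library. Hsph1, a co-chaperone of Hsp70, read 20.2, 15.2, 16.7 and 14.7 TPM in WT and 10.4, 9.78 and 10.8 TPM in VCP TG (-0.63 ± 0.13), and Gabarapl2, which coats autophagosomes, read 37.98, 39.7, 35.3 and 36.8 TPM in WT and 28.4, 26.6 and 23.8 TPM in VCP TG (-0.50 ± 0.10). The rest were Rnf13, a ubiquitin ligase of endosomes (-0.56), Dpm1, a subunit of dolichol phosphate mannose synthase (-0.73), Uxt, a prefoldin-like protein (-0.57), Srgn, the proteoglycan serglycin (-0.57), Smim10l1 (-0.78), Scgb1c1 (-0.69), Lsmem1 (-0.47) and the histone genes Hist1h2bf (-0.85), Hist1h4h (-0.85) and Hist1h2bc (-0.64).

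Gene lists are described by how many of their tested genes had no overlap between the groups and by their median difference, to be read beside 19.4% higher, 2.97% lower and 0.15 over all genes. Counts on all 3 scales are to be read beside 5.22% higher and 2.87% lower over all genes. In whole tissue, fewer cells of a type and less RNA per cell cannot be told apart. Among VCP and its cofactors, 6 of 33 genes were higher without overlap and 2 lower, with a median of 0.09. Nploc4, the adaptor that binds ubiquitin chains with Ufd1, read 13.3, 11.5, 12.7 and 11.3 TPM in WT and 17.96, 15.5 and 18.8 TPM in VCP TG (0.48 ± 0.11, limma adjusted p = 0.0635), but overlapped after rescaling to nuclear coding genes. Selenos, an ER membrane protein that recruits VCP, read 11.9, 8.92, 7.99 and 9.22 TPM in WT and 6.15, 6.63 and 6.06 TPM in VCP TG (-0.52 ± 0.14, limma adjusted p = 0.0811) and was lower on all 3 scales. Derl2, of the same ER complex, was the other gene lower on all 3 scales, and 0 of the 33 were higher on all 3. Of the 29 genes of the ER unfolded protein response and ER-associated degradation, 1 was higher and 2 lower, among these Dnajb9, an Hsp40 of the ER lumen, at 41.4, 29.9, 31.2 and 31.8 TPM in WT and 18.05, 26.01 and 22.9 TPM in VCP TG (-0.57 ± 0.16).

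The proteasome, the protease downstream of VCP, had 6 of 34 genes higher (17.6%) and 4 lower (11.8%), with a median of 0.05. Psmc2, an ATPase subunit of the regulatory particle, read 47.3, 40.3, 56.4 and 55.7 TPM in WT and 136, 76.4 and 93.8 TPM in VCP TG (0.99 ± 0.21, limma adjusted p = 0.0550) and was the subunit higher on all 3 scales. Psma2, an alpha subunit of the core, read 93.04, 87.4, 84.3 and 86.01 TPM in WT and 69.7, 70.1 and 72.8 TPM in VCP TG (-0.30 ± 0.10), and Psmb1, Psmc6 and Psmd14 were also lower on all 3 scales. The subunits therefore did not lie on one side of WT. Of 43 autophagy, mitophagy and lysosome genes, 6 were higher and 2 lower (median 0.06). Atg16l1, which helps attach the ATG8 proteins to membranes, read 14.7, 14.4, 17.3 and 14.1 TPM in WT and 31.5, 23.3 and 27.4 TPM in VCP TG (0.81 ± 0.13, limma adjusted p = 0.0533) and held on all 3 scales. Bnip3l, a mitophagy receptor, read 48.4, 57.2, 56.1 and 49.5 TPM in WT and 38.6, 41.4 and 39.3 TPM in VCP TG (-0.40 ± 0.11) and was lower on all 3, as was Gabarapl2. Among 26 heat shock proteins and co-chaperones 3 were higher and 4 lower (15.4%), with a median of -0.14, and the 4 lower ones (Hsph1, Hspe1, Hsp90aa1 and Dnajb4) held on all 3 scales. Hspe1, the mitochondrial co-chaperonin, read 177, 172, 124 and 124 TPM in WT and 97.6, 109 and 106 TPM in VCP TG (-0.49 ± 0.16).

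The mitochondrial genes are given by role, the respiratory chain first. Of 71 nuclear-encoded subunits of the respiratory chain and ATP synthase, 14 were lower without overlap (19.7%) and 1 was higher (Ndufv1), with a median of -0.21, and 11 were lower on all 3 scales (15.5%, beside 2.87% of all genes). Cox7c, a subunit of cytochrome c oxidase, read 1587, 1726, 1369.9 and 1361 TPM in WT and 969, 1046 and 1092 TPM in VCP TG (-0.54 ± 0.13, limma adjusted p = 0.0701). Cox7b, of the same complex, read 411, 468, 361 and 412 TPM in WT and 265, 297 and 306 TPM in VCP TG (-0.51 ± 0.13, limma adjusted p = 0.0732). Uqcrb, of the cytochrome bc1 complex, read 1654, 1885, 1673 and 1414 TPM in WT and 1012, 1179.7 and 1221 TPM in VCP TG (-0.54 ± 0.14, limma adjusted p = 0.0764). All 3 were lower in each VCP TG library than in any WT library on all 3 scales. Of the 71, 0 were called at an adjusted p under 0.05. The count of 14 was 32 without VCP TG replicate 3, where the lower share of all genes tested also rose, from 2.97% to 5.45%. Among the 13 mitochondrially encoded subunits, 6 were lower and 0 higher (median -0.16), but 2 of the 6 held on all 3 scales. One of these is mt-Nd2, of complex I, at 31309, 30607, 33204 and 29913 TPM in WT and 21208, 26228 and 24843 TPM in VCP TG (-0.38 ± 0.12), while mt-Atp8, of ATP synthase, at -0.60, overlapped after quantile normalization.

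Genes of the mitochondrial ribosome had 7 of 56 lower (12.5%) and 2 higher, and all 7 held on all 3 scales, with a list median of -0.03. Mrpl42 of the large subunit read 418, 492, 424 and 430.5 TPM in WT and 282, 329 and 332 TPM in VCP TG (-0.49 ± 0.12, limma adjusted p = 0.0725) and Mrps21 of the small subunit read 234, 288, 221 and 224 TPM in WT and 153, 165 and 185 TPM in VCP TG (-0.52 ± 0.14, limma adjusted p = 0.0777). Cytosolic ribosomal proteins, many of which have near-identical processed copies among which reads may be shared, had 10 of 77 lower (13.0%) and 2 higher, with a median of -0.08. Rps26 read 429, 312, 327 and 269.7 TPM in WT and 182, 259 and 212 TPM in VCP TG (-0.61 ± 0.19) and Rpl19 373, 365, 283 and 350.0 TPM in WT and 217, 258 and 268 TPM in VCP TG (-0.46 ± 0.14), both lower on all 3 scales. Of 26 genes of mitochondrial fusion, fission and calcium uptake 3 were higher and 3 lower, the latter including Slc25a5, the ATP/ADP carrier, at 201, 270.1, 196 and 271 TPM in WT and 163, 173 and 169.7 TPM in VCP TG (-0.46 ± 0.15).

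Upstream of these stand the regulators of mitochondrial biogenesis. Of 25 genes, 5 were higher, a share near the background, and 0 lower, with a median of 0.14, which is also near that of all genes. Ppargc1a, the coactivator that drives mitochondrial genes, read 219.7, 139.5, 70.9 and 108 TPM in WT and 222, 259.7 and 308 TPM in VCP TG (1.07 ± 0.34, limma adjusted p = 0.114). Its WT values were widely spread, and the lowest VCP TG library was just above the highest WT library. Ppargc1b, its relative, read 10.8, 10.5, 12.9 and 10.8 TPM in WT and 14.9, 18.4 and 21.1 TPM in VCP TG (0.63 ± 0.14, limma adjusted p = 0.0567), and Esrrg, a nuclear receptor that works with them, read 12.9, 18.8, 18.5 and 16.7 TPM in WT and 33.6, 21.7 and 27.2 TPM in VCP TG (0.68 ± 0.18). None of the 5 stayed apart on all 3 scales.

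Fatty acid uptake and oxidation held 1 of the 3 called members, Ucp3. Of its 36 genes 8 were higher without overlap (22.2%, near the background) and 1 was lower, with a median of 0.26. After quantile normalization, 7 were higher (19.4%, beside 8.67% of all genes) and 0 lower, and after rescaling to nuclear coding genes the median was -0.13. Angptl4, a lipoprotein lipase inhibitor induced by fatty acids, read 3.203, 1.52, 0.879 and 1.86 TPM in WT and 7.496, 5.42 and 7.64 TPM in VCP TG (1.503 ± 0.26, limma adjusted p = 0.0533), and it is a member through the VCP TG libraries alone, like Ucp3. Slc27a1, a fatty acid transport protein, read 8.27, 10.1, 8.67 and 9.34 TPM in WT and 16.4, 17.4 and 25.6 TPM in VCP TG (1.02 ± 0.16, limma adjusted p = 0.0533). These and Ucp3 were the 3 genes higher on all 3 scales. Slc25a20, the carnitine-acylcarnitine carrier, read 24.1, 31.0, 23.6 and 27.2 TPM in WT and 47.2, 34.2 and 46.9 TPM in VCP TG (0.66 ± 0.15, limma adjusted p = 0.0636). Cpt1a, which commits fatty acids to the mitochondria, read 9.98, 6.51, 6.26 and 6.59 TPM in WT and 10.97, 11.7 and 14.1 TPM in VCP TG (0.68 ± 0.17, limma adjusted p = 0.0725). In both, the groups overlapped after rescaling to nuclear coding genes. Glycolysis and glucose uptake had 3 of 30 genes higher and 0 lower, and the tricarboxylic acid cycle with ketone and amino acid use 1 of 26 higher and 0 lower.

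**Figure D4:**
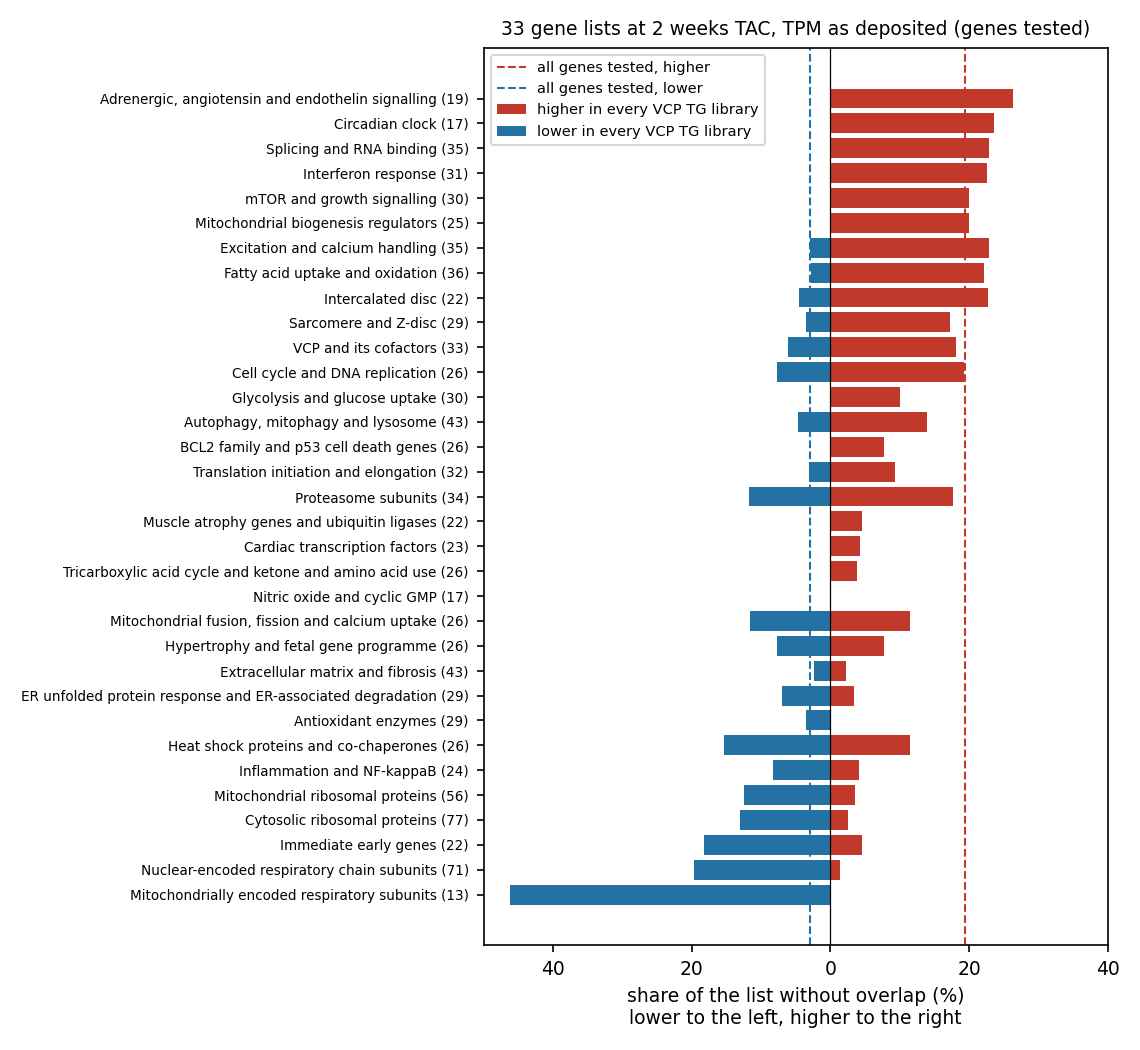
For each of 33 gene lists (number of tested genes in brackets), the share of genes (percent, horizontal axis, lower to the left and higher to the right) whose VCP TG libraries all lie below or above all WT libraries on the deposited scale, with dashed lines at the shares over all genes tested (2.97% and 19.4%). The higher shares run up to 26.3%, beside the line at 19.4%, and the nuclear-encoded respiratory subunits stand at 19.7% lower.

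The 7 genes taken as standard readouts of cardiac overload and remodelling all missed the test. Nppa, the atrial natriuretic peptide, read 5174, 32.5, 74.5 and 88.6 TPM in WT and 198, 1781 and 23.6 TPM in VCP TG (0.15 ± 2.15, limma adjusted p = 0.977). It is itself one of the atrial markers, whose other 16 genes summed to 5390 TPM in the library labelled WT replicate 1, 2937 TPM in VCP TG replicate 2 and 239 to 712 TPM in the other 5 libraries. Nppb, the B-type peptide, read 345, 56.6, 104 and 56.3 TPM in WT and 56.2, 86.1 and 40.2 TPM in VCP TG (-0.83 ± 0.61, limma adjusted p = 0.454). Both overlapped between the groups. Myh6, the adult myosin heavy chain, read 3374, 4158, 3389.6 and 3826 TPM in WT and 4199.5, 4446 and 5446 TPM in VCP TG and did not overlap (0.35 ± 0.14, limma adjusted p = 0.190), yet the difference was -0.05 after rescaling to nuclear coding genes. Myh7, the fetal form, was 174, 232, 174 and 173 TPM in WT and 222, 210.0 and 285 TPM in VCP TG (0.34 ± 0.16, limma adjusted p = 0.247), also -0.05 after that rescaling. Acta1, skeletal actin, a fetal-programme gene, read 90.3, 173, 203 and 260.4 TPM in WT and 364, 243 and 281 TPM in VCP TG (0.78 ± 0.33, limma adjusted p = 0.203). Atp2a2, the calcium pump of the sarcoplasmic reticulum, differed by 0.03 ± 0.16 (limma adjusted p = 0.941), with the sign reversed after quantile normalization (-0.13) and rescaling (-0.37). Col1a1, fibrillar collagen, read 41.9, 5.92, 9.22 and 12.2 TPM in WT and 8.41, 15.1 and 6.49 TPM in VCP TG (-0.44 ± 0.57, limma adjusted p = 0.691), and the difference was 0.09 without the library labelled WT replicate 1. In the wider list of 26 hypertrophy and fetal programme genes, 2 were higher and 2 lower, among them Xirp2, an actin-binding protein of the intercalated disc, at 137, 141, 157 and 162 TPM in WT and 123, 114 and 115 TPM in VCP TG (-0.34 ± 0.11).

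Structural and electrical genes of the cardiomyocyte had higher counts near the background on the deposited scale, and 1 higher gene on all 3 scales. Of 29 sarcomere and Z-disc genes 5 were higher and 1 lower (median 0.16), of 35 excitation and calcium handling genes 8 and 1 (0.11), and of 22 intercalated disc genes 5 and 1 (0.11). Tcap, the titin cap, read 278, 422, 342 and 427 TPM in WT and 544, 602 and 739 TPM in VCP TG (0.78 ± 0.19, limma adjusted p = 0.0670). Scn4b, a sodium channel beta subunit, read 2.405, 5.11, 4.13 and 3.802 TPM in WT and 8.27, 5.90 and 10.8 TPM in VCP TG (0.93 ± 0.24, limma adjusted p = 0.0744), and was the gene of these 3 lists that was higher on all 3 scales. Kcnh2, a repolarizing potassium channel, differed by 0.61 ± 0.14, the desmosomal cadherin Dsg2 by 0.64 ± 0.12 and the lamin Lmna by 0.46 ± 0.12, each overlapping after rescaling to nuclear coding genes. Lower on all 3 scales were Pdlim5, a Z-disc protein, at 174, 247, 206 and 236 TPM in WT and 162, 140.2 and 171 TPM in VCP TG (-0.44 ± 0.15), and Pkp2, a desmosomal plaque protein, at 43.7, 47.2, 46.1 and 45.9 TPM in WT and 34.8, 37.1 and 39.7 TPM in VCP TG (-0.29 ± 0.10). Trdn, of the calcium release unit, was lower on all 3 scales as well.

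Signalling lists depended on the scale, as did all genes tested. The mTOR and growth list had 6 of 30 genes higher and 0 lower (median 0.10), led by Akt1, a kinase of insulin and growth signalling, at 18.5, 18.6, 19.6 and 19.3 TPM in WT and 24.9, 31.9 and 32.7 TPM in VCP TG (0.62 ± 0.12, limma adjusted p = 0.0539), and by Rps6kb1, the S6 kinase, at 10.99, 10.6, 12.3 and 10.3 TPM in WT and 15.8, 15.6 and 16.2 TPM in VCP TG (0.49 ± 0.10, limma adjusted p = 0.0549). The adrenergic, angiotensin and endothelin list had 5 of 19 higher and 0 lower (median 0.23), with Gnaq, the G protein subunit downstream of these receptors, at 35.6, 35.1, 46.6 and 28.9 TPM in WT and 99.8, 52.3 and 67.1 TPM in VCP TG (0.95 ± 0.23, limma adjusted p = 0.0707). Nitric oxide and cyclic GMP genes had 0 of 17 in either direction. After quantile normalization the mTOR and growth list had 4 higher and 6 lower and the adrenergic list 1 and 1. The shares of all genes tested were then 8.67% higher and 10.6% lower. After rescaling to nuclear coding genes the lists had 0 and 10, and 0 and 3, beside 5.78% and 19.0% of all genes tested. The move to lower counts is therefore not particular to these lists. Akt1, Rps6kb1 and Gnaq overlapped between the groups after rescaling to nuclear coding genes.

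Among 22 immediate early genes, which respond to stimuli within a short time, 4 were lower (18.2%) on all 3 scales and 1 was higher. Btg2, an antiproliferative early gene, read 10.8, 5.73, 9.02 and 6.997 TPM in WT and 3.98, 4.51 and 4.84 TPM in VCP TG (-0.72 ± 0.19, limma adjusted p = 0.0829), and is a member through the WT libraries alone. Myc, a growth transcription factor that is no member because of its low level, read 5.03, 3.104, 3.92 and 3.18 TPM in WT and 1.72, 1.37 and 1.95 TPM in VCP TG (-0.83 ± 0.17, limma adjusted p = 0.0549). Nr4a3, an orphan nuclear receptor, went the other way at 17.7, 4.92, 3.85 and 3.75 TPM in WT and 18.9, 22.9 and 26.0 TPM in VCP TG (1.72 ± 0.45, limma adjusted p = 0.0777), and its highest WT value was again in the library labelled WT replicate 1.

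Interferon response genes had 7 of 31 higher (22.6%, near the background) and 0 lower, with a median of 0.13. On all 3 scales 2 were higher (6.45%, beside 5.22% of all genes). These were Igtp, an interferon-induced GTPase, at 4.68, 2.64, 3.59 and 2.85 TPM in WT and 11.1, 7.88 and 10.7 TPM in VCP TG (1.30 ± 0.19, limma adjusted p = 0.0533), and Mx1, an antiviral GTPase below the member minimum, at 2.05, 1.79, 2.22 and 1.97 TPM in WT and 6.06, 3.26 and 3.42 TPM in VCP TG (0.76 ± 0.19, limma adjusted p = 0.0724). Igtp is a member through the VCP TG libraries alone, so its groups had to be apart on the deposited scale. The 26 cell cycle and DNA replication genes had 5 higher and 2 lower. On all 3 scales they had 3 and 2 (11.5% and 7.69%, beside 5.22% and 2.87% of all genes). Cenpf, a kinetochore protein that is no member, read 2.91, 2.52, 3.44 and 2.42 TPM in WT and 6.91, 4.53 and 5.86 TPM in VCP TG (0.82 ± 0.16, limma adjusted p = 0.0542), and Tyms, thymidylate synthase, 16.8, 13.05, 17.7 and 16.1 TPM in WT and 56.7, 24.2 and 32.2 TPM in VCP TG (1.11 ± 0.26, limma adjusted p = 0.0640). Ccnd2 and Pcna were the 2 lower genes.

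Histone genes were grouped after 3 of them appeared among the lower members, and these 3 are counted here as well. Of the 23 members whose names start with Hist, 8 were lower without overlap, all 8 on all 3 scales, 1 was higher, and the median difference was -0.52. The lower share was 4.69% over all members, and since the group was picked for its lower genes nothing is read from the contrast. Of the 8, Hist1h2bf, Hist1h4i and Hist1h2bk reached 5 TPM in all 4 WT libraries and in no VCP TG library. They are members through the WT libraries alone. That route needs only 3 of the 4 WT libraries, so it favours groups that are apart on the deposited scale without forcing it. Hist1h4h (chr13:23531050-23531519, + strand) read 78.5, 94.7, 89.1 and 75.8 TPM in WT and 41.4, 43.6 and 55.3 TPM in VCP TG (-0.85 ± 0.14, limma adjusted p = 0.0533). Hist1h2bc read 69.1, 80.7, 61.8 and 77.2 TPM in WT and 42.7, 48.9 and 45.8 TPM in VCP TG (-0.64 ± 0.12, limma adjusted p = 0.0542). Hist1h1c, which encodes a linker histone, was the higher one (5.59, 6.13, 5.38 and 7.34 TPM in WT and 9.19, 8.203 and 8.34 TPM in VCP TG, 0.44 ± 0.13). Replication-dependent histone messages mostly lack a poly(A) tail and the genes are close copies of each other, so their levels in libraries selected for poly(A) and the split of reads among copies are uncertain.

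Markers of other cells of the heart gave few separations. Of the endothelial, fibroblast and macrophage markers, 0 were without overlap in either direction. Fibroblast markers summed to 552 to 1384 TPM in WT and 668 to 948 TPM in VCP TG, and macrophage markers to 142 to 385 TPM and 150 to 189.6 TPM, the highest in both being the library labelled WT replicate 1. Smooth muscle and pericyte markers had 1 higher gene (Smtn) and 3 lower (Cnn1, Higd1b and Tagln). Markers of Schwann cells and neurons summed to 13.98 to 20.9 TPM in WT and 22.5 to 28.1 TPM in VCP TG, and those of lung, thymus and liver, which the left ventricle should lack, to 1.89 to 3.77 TPM and 3.95 to 7.23 TPM. Of the T and B lymphocyte markers, 2 were higher without overlap: Cd8a, a coreceptor of T cells, read 1.797, 1.34, 1.87 and 1.45 TPM in WT and 7.13, 2.74 and 4.17 TPM in VCP TG (limma adjusted p = 0.0648), and Ms4a1, a surface protein of B cells, 1.27, 1.07, 1.09 and 1.23 TPM in WT and 3.58, 1.42 and 2.56 TPM in VCP TG (limma adjusted p = 0.120). All markers of these lists in the table were above 0 in at least 1 of the 7 libraries.

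Shorter members were more often lower in VCP TG. The longest coding transcript in GENCODE M21 had a median length of 3103 bases over the 7318 members with an entry, 3308 bases over those higher on all 3 scales and 1632 bases over those lower on all 3. Of the 553 members under 1000 bases 98 were lower without overlap (17.7%), against 3.64% of longer members. From the shortest to the longest of 7 length classes the lower share was 18.4% (under 500 bases), 17.6%, 7.19%, 4.52%, 2.18%, 1.59% and 1.40% (over 10000 bases), and it was 14.9% and 1.40% at the ends when all 3 scales were asked for. The higher share went from 11.5% to 27.4% on the deposited scale, but on all 3 scales it was 4.60% under 500 bases and 2.33% over 10000 bases. Within the respiratory subunits, 11 of 38 short members were lower (28.9%) against 3 of 33 longer ones (9.09%). Within the cytosolic ribosomal proteins the counts were 8 of 45 and 2 of 32, and within the mitochondrial ribosomal proteins 5 of 19 and 2 of 35. Among the members lower on all 3 scales were also long genes such as Pdlim5 and Xirp2. The part of length in the groups' lower counts was not tested further.

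**Figure D5:**
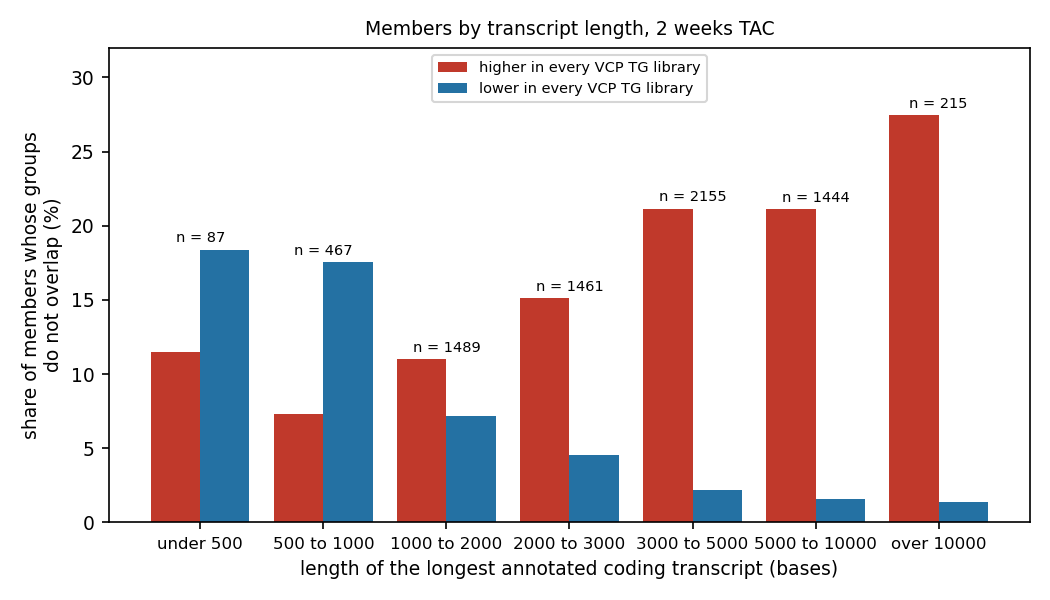
Share of members (percent, vertical axis) whose VCP TG libraries lie above or below all WT libraries, by class of longest coding transcript in bases (horizontal axis). The lower share falls from 18.4% under 500 bases to 1.40% over 10000 bases, and the higher share is 11.5% and 27.4% at the ends on this, the deposited, scale, where on all 3 scales it is 4.60% and 2.33%.

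The same contrast of genotypes exists in sham hearts and after 5 weeks of TAC, in libraries that this comparison does not share. The difference of differences was tested directly with limma: against sham, 1 of 15540 genes (0.00644%) differed at an adjusted p under 0.05, Hbb-bh0, and 0 of 7327 members did. At an unadjusted p under 0.05, 628 of the 15540 genes were higher and 151 lower, 305 of them members. Against 5 weeks of TAC, 0 of 15539 genes did (smallest limma adjusted p = 0.215, 593 higher and 89 lower at an unadjusted p under 0.05, 269 of them members). Signs were nevertheless shared unevenly. Of the 259 members higher on all 3 scales 96.1% had a positive difference at 5 weeks, and of the 330 lower ones 94.8% a negative one, where 45.8% of all members were positive. Leaving out single 5-week libraries gave 87.6 to 96.9% and 84.2 to 97.0%. In sham hearts 79.9% of the higher set were positive, while 20.3% of the lower set were negative, where 43.2% of all members were positive. The mean log2 level of the higher set was 4.86 in sham VCP TG replicate 3 and 3.51 to 3.88 in the other sham VCP TG libraries. In sham WT it was 3.54 to 3.84. The part of that single library in the sham share was not tested. Genes are not independent replicates, and these shares are given as a description.

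Ucp3 shows how much the level moves across the study. Sham WT libraries held 5.001, 15.2, 15.6 and 5.54 TPM and sham VCP TG libraries 7.31, 6.35, 8.27 and 1.396 TPM. After 5 weeks of TAC the WT libraries held 2.89, 4.94, 7.59 and 18.7 TPM and the VCP TG libraries 9.40, 9.07 and 11.5 TPM. The VCP TG hearts of 2 weeks of TAC thus lie within the range of sham WT hearts, and the WT hearts of 2 weeks of TAC below it. The genotype difference was -0.74 ± 0.39 in sham and 0.47 ± 0.38 at 5 weeks, and its change from sham to 2 weeks of TAC did not pass the test (2.01 ± 0.57, limma adjusted p = 0.872). Nfe2l1 was at 126, 115, 175 and 147 TPM in sham WT and 110.0, 83.4, 171 and 41.04 TPM in sham VCP TG libraries, so its 2-week WT values were the low ones among WT groups, where those of 5 weeks ran from 79.6 to 173 TPM. Ccdc167 ranged from 3.02 to 13.6 TPM in sham WT and from 4.64 to 21.1 TPM in sham VCP TG, so its 2-week VCP TG values are not outside those of sham hearts. F830016B08Rik read 10.5 to 26.7 TPM in all 15 libraries outside this comparison, and the 3 VCP TG libraries of 2 weeks of TAC, at 48.6 to 72.6 TPM, stand above all other libraries of the study.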

How the data were processed

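The authors deposited TPM values per gene, in a table of the 2-week and another of the 5-week libraries, and the unit was read from the values, which sum to 1000000 in every library. Sequencing depth is unknown. The submitters' processing notes name Trimmomatic 0.35, kallisto 0.43.1, STAR 2.5.4b, DESeq2 and GRCm38 without a role or order. Of 30735 genes, 30074 matched GENCODE M21.

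Genes at 1 TPM or more in at least 3 of the 7 libraries (14162) entered limma 3.58.1 (R 4.3.3) on log2(TPM + 1), which understates changes of low genes, with trended, robust moderation and Benjamini-Hochberg adjustment over all of them, two-sided, threshold 0.05. On simulated data with 100 genes each changed by 1 and by 2 on the log2 scale, 74% and 100% were recovered, with 9 false among 183 calls. The simulated noise was normal and independent between genes, and the members with the widest spread were not among the changed genes. Deviations that many genes of a library share were absent, so these rates need not hold for the real libraries. Between the 7 libraries the correlation across genes was 0.942 to 0.981, and 0 pairs were identical. Named genes are Vcp, 7 overload genes, up to 15 members per direction by smallest p and up to 5 per list, of which some are not reported here. Members, lists and tests were chosen with earlier results of these data known. Alternatives changed the pseudocount, filter, scaling, moderation, weights, libraries fitted and replicate block.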

Additional observations from a re-analysis of the deposited data

Results flagged for a closer look

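Within the 4 WT libraries a single library stood far from the others for 11 of 101 genes, marker sums and library measures looked at. In 8 of the 11 this was the library labelled WT replicate 1. The rule flags about 1 in 20 by chance for independent, normally distributed values. These items are related to each other and on the TPM scale, so nothing is read from the count beside that rate. The gap to the next library took 0.963 of the WT range for Vcp (119 TPM against 47.7 to 50.3 TPM), 0.989 for Nppa (5174 against 32.5 to 88.6 TPM), 0.834 for Nppb (345 against 56.3 to 104 TPM), 0.836 for Dnajb9 (41.4 against 29.9 to 31.8 TPM), 0.911 for Cpt1a (9.98 against 6.26 to 6.59 TPM) and 0.916 for Nr4a3 (17.7 against 3.75 to 4.92 TPM). It took 0.984 for the summed atrial markers (10564 against 272 to 433 TPM) and 0.891 for the summed T and B lymphocyte markers (419 against 53.2 to 93.0 TPM). Nppa is part of the atrial sum, so these are not independent of each other, and the other 16 atrial markers summed to 5390 TPM in that library and to 239 to 344 TPM in the other WT libraries. Of the lymphocyte sum 287 TPM were Igkc and 111 TPM Cd74, and without these genes it was 21.1 TPM against 16.9 to 20.3 TPM. The other 3 were Myh7, with 0.972 of the range (232 TPM in WT replicate 2 against 173 to 174 TPM), Mrpl42, with 0.832 (492 TPM in WT replicate 2 against 418 to 430.5 TPM), and Ppargc1b, with 0.891 (12.9 TPM in WT replicate 3 against 10.5 to 10.8 TPM). The causes were not tested.

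Hbb-bh0, a globin pseudogene, was the gene whose genotype difference differed between 2 weeks of TAC and sham, by 2.20 in log2(TPM + 1) (limma adjusted p = 0.0340). It was listed at 0 in all 8 sham and all 4 WT libraries of 2 weeks of TAC, at 3.13 to 3.87 TPM in the 3 VCP TG libraries, and, after 5 weeks of TAC, at 0 in the 3 VCP TG libraries and at 0 to 5.17 TPM in WT.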

How the results depend on the processing

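The number of calls moved more than their direction. For all genes (8 as reported) it was 4 with a pseudocount of 0.1, 5 with no filter, 376 with the 5 TPM filter, 0 with 1 TPM in 5 libraries, 4 after quantile normalization, 1371 with library weights, 14 when 15 libraries were fitted and 884 without the library labelled WT replicate 1 and VCP TG replicate 2, an alternative chosen after seeing the data. Leaving out 1 library gave 0 to 777. For members (3 as reported) the counts were 1 with no filter, 317 with the 5 TPM filter, 0 with 1 TPM in 5 libraries, 1 after quantile normalization, 5 after rescaling to nuclear coding genes (2 higher, 3 lower), 760 with library weights, 1 with 15 libraries and 513 without that pair, and 0 to 414 with 1 library left out. Fewer genes tested is part of the construction of the stricter filter, and otherwise the cause was not tested. Replicate numbers do not pair the libraries (correlations of same-numbered deviations -0.103, -0.149 and 0.0751), and a replicate block over 6 libraries gave 17 calls and 12 members.

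Vcp was 1.04 to 1.47 with 1 library left out. The difference from sham (1 gene) gave 0 with a pseudocount of 0.1, 24 with no filter, 2 after quantile normalization, 4 without trend and 0 to 4 with 1 library left out, and that from 5 weeks (0 genes) 0 to 1. Members without overlap (1254 higher, 344 lower) were 646 and 880 after quantile normalization, 259 and 2003 after rescaling, 2781 and 684 without that pair, and 1359 to 2021 and 389 to 612 with 1 library left out. Nppa turned to -0.24 after rescaling and -0.20 with the replicate block, and lay between -1.40 (without VCP TG replicate 2) and 1.76 (without the library labelled WT replicate 1) with 1 library left out. After rescaling Myh6 was -0.051, Myh7 -0.054 and Atp2a2 -0.37. Atp2a2 was also -0.13 after quantile normalization, -0.066 without that pair and -0.069 to 0.12 with 1 library left out, and Col1a1 -0.78 to 0.094. Of 79 named genes under the 5 TPM filter, 41 passed a threshold they had missed. With TPM and no counts, depth sets no limit that can be stated.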

Other observations

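The genes of extracellular matrix, inflammation, clock, RNA processing and cell death add these counts on the deposited scale. Of 43 extracellular matrix and fibrosis genes 1 was higher without overlap (Tgfbr1, a receptor of TGF-beta) and 1 lower (Eln, elastin), with a median of -0.10 beside 0.15 over all genes. Of 24 inflammation genes 1 was higher (Cxcl1, a chemokine) and 2 were lower (Nfkb2 and the chemokine Ccl2). The 17 circadian clock genes had 4 higher (Hlf, Cry1, Cry2 and Per3) and 0 lower. Of 35 splicing and RNA-binding genes 8 were higher and 0 lower, and of 32 genes of translation initiation and elongation 3 were higher and 1 lower (Eif2s2, a subunit of initiation factor eIF2). The BCL2 family and p53 cell death genes had 2 higher (Bcl2l13 and Bik), the muscle atrophy genes 1 (Cblb), the cardiac transcription factors 1 (Irx3), and the antioxidant enzymes 1 lower (Nfe2l2). The higher shares of these lists lie near or below the 19.4% of all genes.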
